A study of Rattus norvegicus with 18 samples.

Results

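The Notch receptors, their ligands and the HES/HEY genes that they control were examined by RNA-seq in rat fibroblasts with and without MYC. Members were the listed symbols Notch1, Notch2, Notch3, Jag1, Jag2, Dll1, Hes1, Hey1, Heyl and Nrarp, and 9 of these 10 were among the 13188 genes of the expression table. Jag2 was not analysed here. The rule used gene symbols alone and no measured value.

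All 18 libraries came from HO15.19, a myc-/- line of Rat1 fibroblasts grown in medium with 10% serum, so every group lacked a functional endogenous myc gene. The myc-/- group was without MYC (the methods describe such cells as carrying the empty vector), and the myc-/- siCtrl group was the same line given a control siRNA. The myc-/- + MYC group stably expressed human MYC from the exogenous promoter of the retroviral vector pBabe, and the same cells were also transfected with control siRNA (siCtrl) or with one of a pair of siRNAs, named siAHR-2 and siAHR-5, that target AHR, a transcription factor activated by aryl hydrocarbons. Per the labels, siRNAs were used at 40 nM and cells were harvested after 48 h. Each group had 3 libraries of poly-A RNA. The methods speak of repeated experiments only in general, and neither they nor the labels say whether these libraries came from separate cultures, so the p-values measure only the spread between these libraries, which may be technical.

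Notch receptors are membrane proteins that are activated by ligands on neighbouring cells, here Jag1 and Dll1. Binding leads to cleavage by an ADAM protease and by γ-secretase, and the released intracellular domain joins the DNA-binding protein RBPJ and a Mastermind coactivator in the nucleus. There it switches on genes such as Hes1, Hey1 and Heyl, which encode repressors of transcription, and Nrarp, which encodes a feedback inhibitor that binds the intracellular domain. In connective tissue the pathway is known for its roles in cell fate, in contact between neighbouring cells and in the differentiation of fibroblasts and mural cells.

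The promoters of Hes1, Dll1 and Nrarp are shown because, among the members' windows of 250 bases before the gene's start, theirs hold the core letters of RBPJ sites or the E-box of MYC. The sequences are from RefSeq on GRCr8, written 5′ to 3′ on the gene's strand, and capitals mark the matches on either strand to TGGGAA (the core of RBPJ sites), CACGTG (the E-box bound by MYC with MAX) and GCGTG (the core of AHR response elements). None of the matches overlapped another. Hes1 lies on the minus strand with its window at chr11:84213046-84213295, Dll1 on the minus strand at chr1:64993275-64993524, and Nrarp on the plus strand at chr3:28390495-28390744.
Hes1: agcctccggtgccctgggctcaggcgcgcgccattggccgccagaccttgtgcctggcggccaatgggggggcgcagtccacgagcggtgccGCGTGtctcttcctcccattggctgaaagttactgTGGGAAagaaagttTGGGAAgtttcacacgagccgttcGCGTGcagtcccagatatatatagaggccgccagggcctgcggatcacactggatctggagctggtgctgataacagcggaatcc
Dll1: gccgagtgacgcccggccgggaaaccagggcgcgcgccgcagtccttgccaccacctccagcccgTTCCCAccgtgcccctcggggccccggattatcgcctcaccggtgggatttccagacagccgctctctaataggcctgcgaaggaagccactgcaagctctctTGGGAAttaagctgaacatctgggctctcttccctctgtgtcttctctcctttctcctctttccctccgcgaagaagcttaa
Nrarp: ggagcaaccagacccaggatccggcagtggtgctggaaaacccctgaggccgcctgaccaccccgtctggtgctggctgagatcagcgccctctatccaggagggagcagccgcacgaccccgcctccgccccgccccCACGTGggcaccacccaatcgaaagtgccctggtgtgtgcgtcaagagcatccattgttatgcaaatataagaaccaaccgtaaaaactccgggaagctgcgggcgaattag

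The Hes1 window held a pair of RBPJ cores, 123 and 109 bases before the start, with AHR cores on both sides of the pair at 158 and 85 bases. The Dll1 window held RBPJ cores at 185 and 82 bases, and the Nrarp window held an E-box at 112 bases. Of the 9 members in the table, 8 had a window, and Hey1 had none. RBPJ cores were found in 2 of the 8 windows, the E-box in 1 and the AHR core in 6 (Notch1, Notch2, Notch3, Jag1, Hes1 and Heyl). Of 33469 rat windows of the same length, 22.1% held TGGGAA, 5.59% held CACGTG and 25.9% held GCGTG. A match is a description of the letters and does not show that a factor binds there.

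Expression was given as normalized log2 values, in which a difference of 1 is a doubling, and the read depth behind them is unknown. The deposited libraries formed 2 sets on different scales, so values were compared only within a set. The 6-library set held myc-/- siCtrl and myc-/- + MYC, and the 12-library set held the untransfected myc-/- cells and all transfected cells with MYC, that is siCtrl and both siAHR groups. In the 6-library set the cells without MYC were the transfected ones, and in the 12-library set the cells with MYC were, so in each set MYC and transfection with siCtrl cannot be told apart. Of the 18 libraries, myc-/- replicate 2 stood farthest from its group, with a median gap per gene of 0.0848 to the mean of the other two libraries, against 0.0313 to 0.0598 elsewhere. Rat Myc had a log2 fold change of -1.26 with MYC in the 6-library set and of -2.68 in the 12-library set. This does not check the label, since the introduced MYC is human and whether its reads were counted for the rat gene was not tested. Ahr fell with siAHR-2 and siAHR-5, at -1.29 and -1.39 against siCtrl (limma, adjusted p = 2.37e-04 and 2.16e-04). Of 11 fibroblast markers, 7 to 8 had a mean above 10 in every group, while Col1a2 was at 3.64 to 4.08 and Fap at 4.66 to 5.21.

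**Figure D1:**
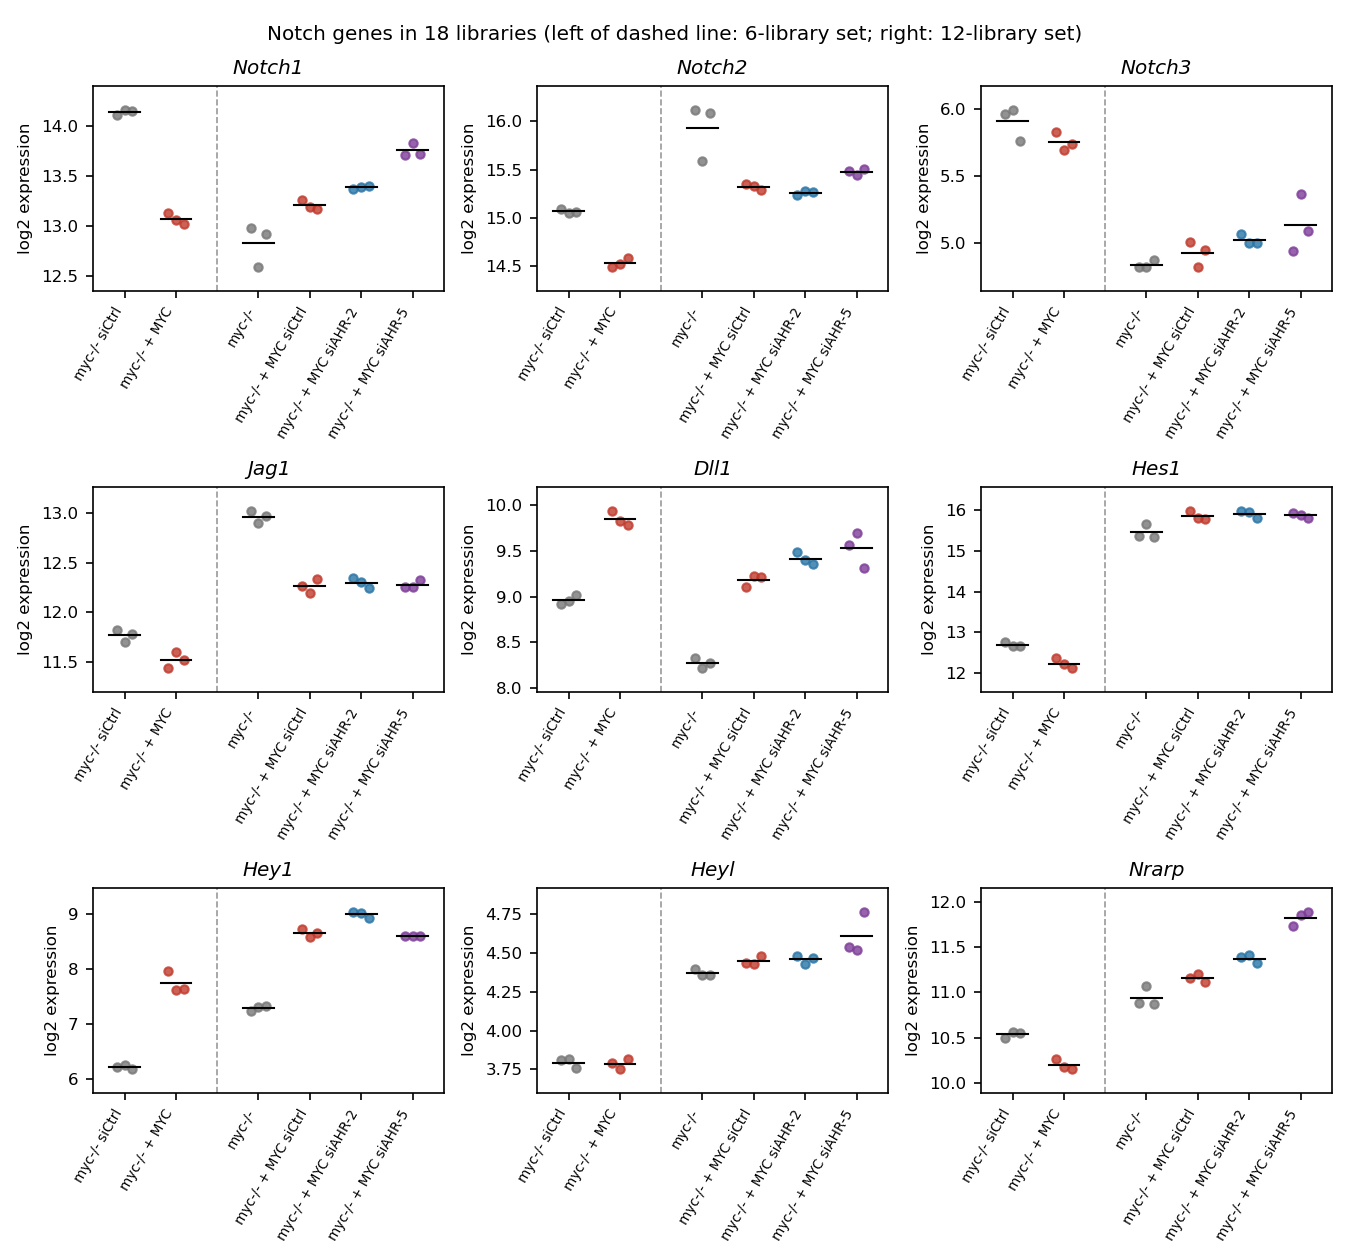
Normalized log2 expression (vertical axes, each with its own range) of the 9 Notch genes in every library, by group. Points are libraries and bars are group means of 3; the dashed line separates the 6-library set from the 12-library set, whose levels cannot be compared. Hey1 and Dll1 lie higher with MYC in both sets, Notch1 and Hes1 lie lower with MYC on the left and higher on the right, and Nrarp and Notch1 are highest with siAHR-5 in the 12-library set.

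The first question was which Notch genes differed between cells with and without MYC. Dll1 and Hey1 rose with MYC in both sets, Notch1 fell in the 6-library set and Jag1 fell in the 12-library set. A gene passed when limma's adjusted p over all genes was at most 0.01 and its fold at least 1.5. In the 6-library set, 3 of the 9 members passed (2 higher, 1 lower) against 26.8% of all genes (12.5% higher, 14.3% lower). Again 3 passed (2 higher, 1 lower) in the 12-library set, against 25.5% (10.8% higher, 14.7% lower). In both sets in the same direction, 2 members passed, both higher, against 6.87% of all genes for that direction. The median log2 fold change of the members was -0.25 in the 6-library set and 0.22 in the 12-library set, beside -0.0038 and -0.00014 for all genes. The 3 of 9 that passed make 33.3% of the members in each set, and whether these shares differ from those of all genes was not tested.

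Among the receptors, Notch1 was at 14.10, 14.16 and 14.15 in myc-/- siCtrl and at 13.13, 13.06 and 13.01 in myc-/- + MYC. It was at 12.97, 12.59 and 12.92 in myc-/- and at 13.25, 13.19 and 13.17 in myc-/- + MYC siCtrl. The groups did not overlap in either set, but the cells with MYC were the lower group in the 6-library set and the higher group in the 12-library set. Notch1 fell by 1.07 on the log2 scale in the 6-library set (SE 0.0356, limma adjusted p = 2.51e-10). Its difference of 0.38 in the 12-library set (95% interval 0.12 to 0.63) did not pass (limma adjusted p = 0.0209). The low myc-/- value of 12.59 was that of replicate 2. With one library left out the difference ran from 0.26 to 0.45 (highest limma adjusted p = 0.0724), and it passed in none of these fits. The MYC effect in the 12-library set minus that in the 6-library set was 1.44 (SE 0.106, limma adjusted p = 2.57e-08), a test of the difference itself that 2 of the 9 members passed against 16.5% of all genes. As the sets differ in scale and in which cells were transfected, the source of this difference was not tested. In bulk RNA, fewer cells with a transcript and less of it per cell cannot be told apart.

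Notch2, a receptor widely found in mesenchymal cells, lay lower with MYC in both sets. Its values were 15.10, 15.06 and 15.06 in myc-/- siCtrl and 14.49, 14.53 and 14.59 in myc-/- + MYC. In cells of the other set they were 16.12, 15.59 and 16.09 in myc-/- and 15.35, 15.33 and 15.28 in myc-/- + MYC siCtrl. No group overlapped the other in its set, and the low value of the myc-/- group was that of replicate 2. The difference was -0.53 in the 6-library set (SE 0.0313, limma adjusted p = 2.80e-08), under the fold asked for. It was -0.61 in the 12-library set (SE 0.146), where it missed the p asked for (limma adjusted p = 0.0111). Without myc-/- replicate 2 it was -0.79 and passed (limma adjusted p = 1.58e-05), and it also passed when all 12 libraries of the set shared 1 fit (limma adjusted p = 2.04e-04). The difference between the sets was -0.08 (95% interval -0.37 to 0.22, limma adjusted p = 0.656). With one library left out it ran from -0.25 to 0.015 (lowest limma adjusted p = 1.38e-04), under the fold asked for throughout.

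Notch3, the receptor best known from vascular mural cells, did not pass in either set. It was at 5.77 to 6.00 in myc-/- siCtrl and 5.70 to 5.83 in myc-/- + MYC, and at 4.82 to 4.87 in myc-/- and 4.82 to 5.01 in myc-/- + MYC siCtrl. The groups overlapped in both sets, with differences of -0.16 (95% interval -0.30 to -0.01) and 0.09 (95% interval -0.04 to 0.21). In the 12-library set, libraries of both groups lay at 4.82, and whether so low a value stands above background was not tested. The narrow intervals therefore do not show that Notch3 was unchanged. Of the 7 smooth muscle and mural markers, 6 had a lower mean with MYC in the 6-library set (all but Rgs5) and 5 in the 12-library set (all but Rgs5 and Cspg4). The log2 of their summed level was 15.23 to 15.26 in myc-/- siCtrl, 14.58 to 14.65 in myc-/- + MYC, 17.91 to 18.05 in myc-/- and 15.01 to 15.08 in myc-/- + MYC siCtrl, with Rgs5 at 0.16 to 0.18 in the 12-library set. The summed level of the 11 fibroblast markers was lower with MYC, from 20.77 to 20.79 down to 19.81 to 19.90 in the 6-library set and from 21.93 to 22.16 down to 20.18 to 20.20 in the 12-library set. By their means, 8 of these markers were lower in the 6-library set, where Col3a1, Pdgfra and Vim were higher, and all 11 were lower in the 12-library set. The summed level of 6 endothelial markers was lower with MYC too, from 10.03 to 10.08 down to 9.13 to 9.27 in the 6-library set and from 10.63 to 10.82 down to 9.79 to 9.87 in the 12-library set, with 4 and 5 of the means lower. That of 5 leukocyte markers was lower as well, from 11.43 to 11.59 down to 10.61 to 10.72 and from 10.91 to 11.00 down to 10.22 to 10.46, with 4 and 3 of the means lower. That of 6 epithelial markers was higher, from 8.25 to 8.31 up to 8.67 to 8.85 and from 7.82 to 7.97 up to 8.80 to 9.13, with 2 and 5 of the means higher. Among these markers, Krt8 had means of 6.08 without and 7.78 with MYC in the 6-library set. In the 12-library set Krt8 was at 7.70 in myc-/- and 8.87 in myc-/- + MYC siCtrl. Epcam was at group means of 1.24 to 2.40 and Krt14 at 0.050 to 0.33. The endothelial marker Vwf had means of 9.54 without and 7.65 with MYC in the 6-library set, and 10.01 and 6.95 in the 12-library set. Tek went the other way, from 5.64 to 7.25 and from 8.72 to 9.10. Cd14, the highest leukocyte marker, went from 11.33 to 10.34 and from 10.80 to 10.06, while Cd68 was higher with MYC in both sets. The part of any of these lists in the results for the Notch genes was not tested.

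Of the ligands, Dll1 was the one that rose. It was at 8.92, 8.95 and 9.01 in myc-/- siCtrl and at 9.94, 9.83 and 9.78 in myc-/- + MYC. It was at 8.32, 8.22 and 8.27 in myc-/- and at 9.10, 9.23 and 9.22 in myc-/- + MYC siCtrl. Every library with MYC was above every library without it in its set. Dll1 was 0.89 higher in the 6-library set (SE 0.0605, limma adjusted p = 1.03e-07) and 0.91 higher in the 12-library set (SE 0.0602, limma adjusted p = 4.24e-05). The MYC effects of the sets differed by 0.02, with a 95% interval of -0.17 to 0.22.

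Jag1, the other ligand, lay lower with MYC in both sets. Its values were 11.83, 11.70 and 11.78 in myc-/- siCtrl and 11.44, 11.60 and 11.52 in myc-/- + MYC. The other set had 13.02, 12.90 and 12.96 in myc-/- and 12.26, 12.19 and 12.33 in myc-/- + MYC siCtrl. Cells with and without MYC did not overlap, with a wider gap in the 12-library set. Jag1 fell by 0.70 in the 12-library set (SE 0.0505, limma adjusted p = 6.25e-05). Its difference of -0.25 in the 6-library set (SE 0.0502, limma adjusted p = 8.61e-04) was under the fold asked for. The MYC effect in the 12-library set minus that in the 6-library set was -0.45 (SE 0.0770, limma adjusted p = 1.61e-04), also under that fold.

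Of the HES/HEY targets, Hey1 had the largest change of the 9 members in both sets. It was at 6.22, 6.26 and 6.19 in myc-/- siCtrl and at 7.98, 7.63 and 7.63 in myc-/- + MYC. It was at 7.24, 7.32 and 7.33 in myc-/- and at 8.74, 8.58 and 8.66 in myc-/- + MYC siCtrl. All libraries with MYC were above those without it by more than 1 on the log2 scale. Hey1 was 1.52 higher in the 6-library set (SE 0.0886, limma adjusted p = 2.64e-08) and 1.36 higher in the 12-library set (SE 0.0612, limma adjusted p = 9.03e-06). The effects of the sets differed by -0.16, with a 95% interval of -0.42 to 0.09.

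Hes1, the target most often used as a readout of Notch activity, lay, like Notch1, on opposite sides in the sets. It was at 12.77, 12.66 and 12.67 in myc-/- siCtrl and at 12.37, 12.22 and 12.13 in myc-/- + MYC. It was at 15.36, 15.65 and 15.33 in myc-/- and at 15.98, 15.81 and 15.78 in myc-/- + MYC siCtrl. Again the groups were apart, and the cells with MYC were lower in the 6-library set and higher in the 12-library set. Neither difference passed: -0.46 in the 6-library set was under the fold asked for (SE 0.0561, limma adjusted p = 1.51e-05), and 0.41 in the 12-library set was under it too (SE 0.100, limma adjusted p = 0.0123). The difference between them did pass, at 0.87 (SE 0.113, limma adjusted p = 1.16e-05).

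Nrarp, the feedback inhibitor, had the same pattern at a smaller size. It was at 10.50, 10.56 and 10.55 in myc-/- siCtrl and at 10.26, 10.17 and 10.16 in myc-/- + MYC. It was at 10.88, 11.07 and 10.87 in myc-/- and at 11.16, 11.20 and 11.12 in myc-/- + MYC siCtrl. The differences were -0.34 (SE 0.0494, limma adjusted p = 6.91e-05) and 0.22 (SE 0.0662, limma adjusted p = 0.0269), and neither passed. The effects of the sets differed by 0.56 (SE 0.0842, limma adjusted p = 4.98e-05), just under the fold asked for, and by 0.65 after quantile normalization within each set, which passed. Heyl, another repressor of the HEY family, was at 3.75 to 3.82 across the 6-library set and at 4.36 to 4.48 in the groups of the 12-library set with and without MYC. Its differences were -0.01 (95% interval -0.08 to 0.06) and 0.08 (95% interval 0.02 to 0.13). These low values differed little between libraries. Whether Heyl was detected above background was not tested, so the small differences do not show an unchanged level.

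**Figure D2:**
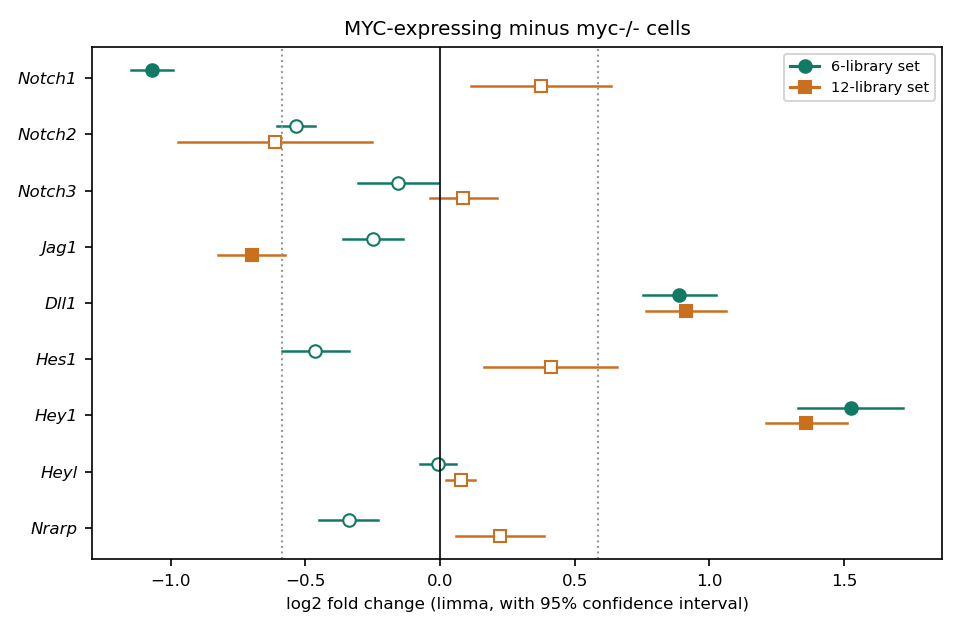
Log2 fold change with MYC (horizontal axis) of each Notch gene in the 6-library set (circles) and the 12-library set (squares), with 95% confidence intervals from limma. Filled symbols passed, dotted lines mark the 1.5-fold cutoff, and Dll1 and Hey1 are the genes with both symbols filled; Notch1 is at -1.07 in the 6-library set and 0.38 in the 12-library set.

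Counted without the fold asked for, 7 members differed in the 6-library set and 8 in the 12-library set at an adjusted p below 0.05, against 76.2% and 64.7% of all genes. The groups did not overlap for 7 and 8 members, against 78.8% and 70.5% of all genes. Heyl, at a low level and a difference of 0.08, was among the 8 members of the 12-library set in both counts. The MYC effects of the sets differed at an adjusted p below 0.05 for 5 members, against 54.9% of all genes.

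The rest of the pathway was read from a list of 79 genes by role, of which 66 were in the table, the members included. Of these, 21 passed in the 6-library set (9 higher, 12 lower) and 23 in the 12-library set (9 higher, 14 lower), that is 31.8% and 34.8% beside 26.8% and 25.5% of all genes. In both sets 7 genes rose and 8 fell, and none passed in opposite directions, against 6.87%, 8.91% and 0.341% of all genes. The median log2 fold change of the list was -0.06 in the 6-library set and 0.00 in the 12-library set. Beyond Dll1 and Hey1, 5 genes rose and 8 fell in both sets, and they are named here by role.

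Upstream of the receptor, Cntn1, a cell-surface contactin described as a noncanonical Notch ligand, had the largest rise. It was at 6.23 to 6.30 in myc-/- siCtrl and 10.20 to 10.33 in myc-/- + MYC, and at 8.37 to 8.47 in myc-/- and 11.94 to 12.11 in myc-/- + MYC siCtrl. Its log2 fold changes were 4.01 and 3.61. Egfl7, a secreted protein that binds Notch receptors, fell, with log2 fold changes of -0.61 and -0.70. After quantile normalization it was at -0.56 in the 6-library set, under the fold asked for. Neurl1b, a ubiquitin ligase that acts on ligands, was at 11.10 to 11.39 and 9.49 to 9.65 without and with MYC in the 6-library set, and fell, with log2 fold changes of -1.70 there and -2.18 in the 12-library set. Of 5 genes that glycosylate the receptors, 4 passed in the 6-library set (1 higher, 3 lower) and 2 in the 12-library set (1 higher, 1 lower), where 26.8% and 25.5% of all genes passed. The fringe enzymes, which change how receptors respond to Delta and Jagged ligands, moved apart. Lfng fell, with log2 fold changes of -0.86 and -1.18, and Rfng was 0.74 and 0.64 higher.

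Among the genes that process the receptor, Ncstn, which encodes the γ-secretase subunit nicastrin, fell, with log2 fold changes of -0.86 and -0.73. After quantile normalization it was at -0.53 in the 12-library set, under the fold asked for. Aph1b, another subunit, named after its values were seen, fell by 0.63 in the 12-library set, and in the 6-library set it was at -0.37. The call of Aph1b was lost whichever of the 6 libraries compared was left out, at values from -0.72 to -0.50. Of the genes that turn over or inhibit the receptor, Dtx4, a Deltex ubiquitin ligase, was at 12.83 to 12.98 in myc-/- siCtrl and at 10.57 in myc-/- + MYC. It fell, with log2 fold changes of -2.36 in the 6-library set and -2.83 in the 12-library set. Numbl, an endocytic inhibitor of Notch, fell, with log2 fold changes of -0.69 and -1.83. Dtx3, another Deltex ligase, was 1.11 and 0.82 higher.

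In the nucleus, Rbpj was at 15.08, 15.09 and 15.10 in myc-/- siCtrl and at 14.24, 14.39 and 14.27 in myc-/- + MYC. It was at 15.93, 15.70 and 15.91 in myc-/- and at 15.12, 15.09 and 15.05 in myc-/- + MYC siCtrl. This gene for the DNA-binding partner of the Notch intracellular domain thus lay lower in every library with MYC of a set. It fell by 0.80 in the 6-library set (limma adjusted p = 4.70e-09) and by 0.76 in the 12-library set (limma adjusted p = 1.47e-04). It was at -0.57 in both sets after quantile normalization, under the fold asked for. Kat2a, a histone acetyltransferase, was 1.19 and 1.06 higher. Of 12 corepressor genes 3 passed in each set (25.0%, beside 26.8% and 25.5% of all genes): among them Hdac2, a histone deacetylase, was 0.99 and 0.96 higher, and Tle3, a Groucho-type corepressor, fell, with log2 fold changes of -0.85 and -1.24.

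**Figure D3:**
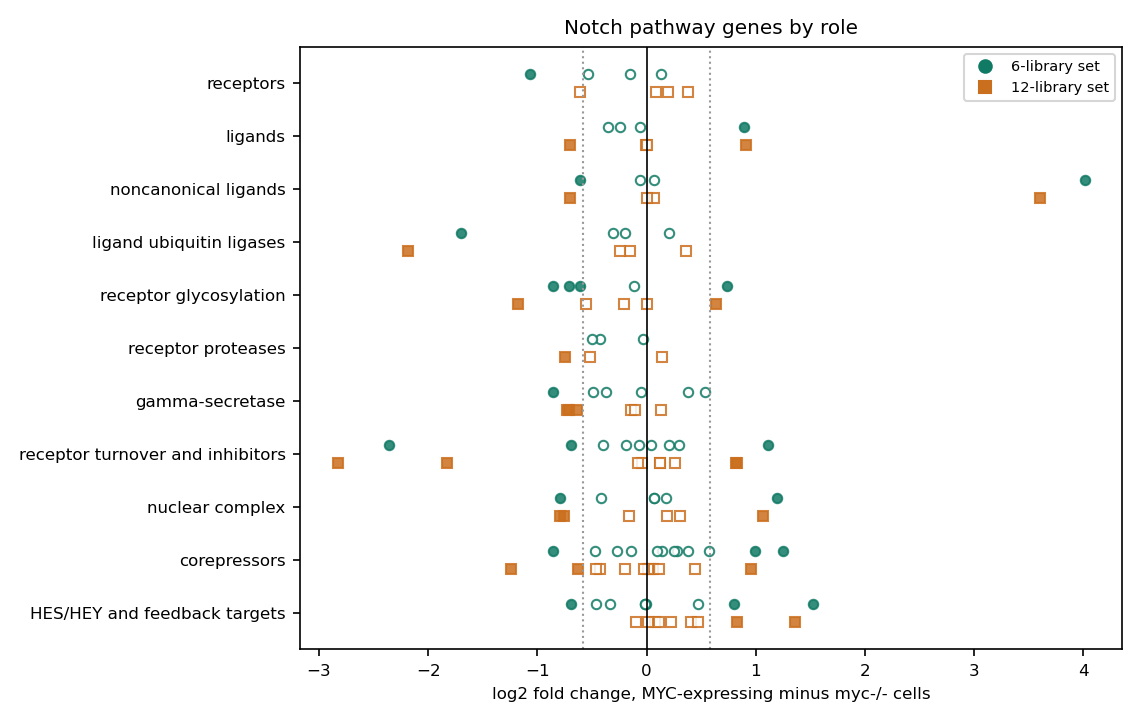
Log2 fold change with MYC (horizontal axis) of 66 Notch pathway genes grouped by role, in the 6-library set (circles) and the 12-library set (squares), 1 point per gene and set. Filled points passed and dotted lines mark the 1.5-fold cutoff; the point farthest to the right in each set is Cntn1 at 4.01 and 3.61, and the one farthest to the left is Dtx4 at -2.36 and -2.83.

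Other genes of the HES/HEY family are named here after their values were seen. Hey2 was 0.47 higher in the 6-library set, under the fold asked for, and 0.83 higher in the 12-library set (limma adjusted p = 1.08e-05). Hes6, which counteracts Hes1, fell by 0.69 in the 6-library set (limma adjusted p = 1.57e-06) and was at 0.47 in the 12-library set (limma adjusted p = 0.00314), a difference between sets of 1.17 that passed. Hes7 was 0.80 higher in the 6-library set and at 0.11 in the 12-library set, a difference of -0.69 that passed, though after quantile normalization it was -0.55, under the fold asked for.

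The second question was whether the Notch genes changed when AHR was knocked down in cells with MYC. With siAHR-2 none of the 9 members passed by limma, against 0.470% of all genes, and 5 had an unadjusted p below 0.05, against 40.4%. At an adjusted p below 0.05 it was 4 members, against 29.3% of all genes. With siAHR-5, 1 member rose, Nrarp, against 2.32% of all genes (1.47% higher), and 3 members had an adjusted p below 0.05, against 39.2%. The groups did not overlap for 5 members with either siRNA, against 43.3% and 50.5% of all genes. Both comparisons used the same 3 siCtrl libraries, so they are not independent, and the siRNAs were also compared with each other directly, where 4 members had an adjusted p below 0.05, against 39.1% of all genes. Marker lists moved here as well. The summed fibroblast level was 19.93 to 19.97 with siAHR-2 and 19.89 to 19.90 with siAHR-5, both below siCtrl. The median of the fibroblast markers in a library moved otherwise. It was 11.68 to 11.83 with siCtrl, 11.60 to 11.72 with siAHR-2 and 12.27 to 12.40 with siAHR-5. With siAHR-5 the means of Vim, Fn1 and Pdgfra were lower than with siCtrl, and those of Col1a1, Pdgfrb, Thy1 and Dcn were higher. Those of Col1a2, Col3a1, Fap and Lum were nearly unchanged, at 3.64, 14.82, 4.68 and 5.84 beside 3.64, 14.80, 4.66 and 5.84 with siCtrl. The summed mural level was 14.85 to 14.89 with siAHR-2, below siCtrl, and the summed leukocyte level was 10.75 to 10.87 with siAHR-5, above siCtrl. Cspg4, the highest mural marker, went from 14.75 to 14.50, while Acta2 went from 11.30 to 11.66. Cd14, the highest leukocyte marker, went from 10.06 to 10.59. Library medians overlapped those of siCtrl: mural 9.83 to 9.93 beside 9.75 to 10.00, and leukocyte 5.70 to 5.75 beside 5.66 to 5.87. The part of the marker lists in the results was not tested.

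Nrarp was at 11.16, 11.20 and 11.12 with siCtrl, at 11.39, 11.41 and 11.32 with siAHR-2 and at 11.74, 11.85 and 11.89 with siAHR-5. The 3 groups did not overlap, and the untransfected myc-/- libraries lay below them all. Nrarp was 0.66 higher with siAHR-5 (SE 0.0494, limma adjusted p = 5.80e-04), and its difference with siAHR-2 was 0.21 (SE 0.0365, limma adjusted p = 0.0106). With siAHR-5 it was 0.45 above its level with siAHR-2 (95% interval 0.33 to 0.58, limma adjusted p = 0.00151), under the fold asked for.

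Notch1 had the same order of groups. It was at 13.25, 13.19 and 13.17 with siCtrl, at 13.36, 13.39 and 13.39 with siAHR-2 and at 13.70, 13.83 and 13.72 with siAHR-5. All 3 were apart, and the differences from siCtrl were 0.18 (SE 0.0265, limma adjusted p = 0.00654) and 0.55 (SE 0.0423, limma adjusted p = 6.35e-04), both under the fold asked for. The direct difference between the siRNAs was 0.37 (95% interval 0.28 to 0.46, limma adjusted p = 0.00102). Ahr itself differed between the siRNAs by -0.11 (95% interval -0.25 to 0.04, limma adjusted p = 0.211).

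Hey1 had another order. It was at 8.74, 8.58 and 8.66 with siCtrl, at 9.05, 9.03 and 8.93 with siAHR-2 and at 8.61 in all 3 libraries with siAHR-5. The siAHR-2 libraries were above the rest, and the siAHR-5 libraries lay within the range of siCtrl. The differences from siCtrl were 0.34 (SE 0.0585, limma adjusted p = 0.0103) and -0.05 (95% interval -0.18 to 0.08), and siAHR-5 minus siAHR-2 was -0.39 for Hey1 (SE 0.0449, limma adjusted p = 0.00167). None of these passed both cutoffs.

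Dll1 was at 9.10 to 9.23 with siCtrl, 9.35 to 9.48 with siAHR-2 and 9.31 to 9.70 with siAHR-5. Both siAHR groups were above siCtrl without overlap and overlapped each other, at differences of 0.23 and 0.34 (limma adjusted p = 0.0324 and 0.0526). Notch2 was at 15.28 to 15.35, 15.23 to 15.28 and 15.45 to 15.51 in the same groups, with differences of -0.06 and 0.16 (limma adjusted p = 0.105 and 0.00545), and it was 0.22 higher with siAHR-5 than with siAHR-2 (limma adjusted p = 9.79e-04). Hes1 and Jag1 were close to their siCtrl levels. Hes1 differed by 0.05 (95% interval -0.12 to 0.21) and 0.01 (95% interval -0.15 to 0.16), and Jag1 by 0.03 (95% interval -0.08 to 0.15) and 0.02 (95% interval -0.09 to 0.13). Notch3 was at 5.00 to 5.06 and 4.94 to 5.37 with siAHR-2 and siAHR-5, with limma adjusted p of 0.226 and 0.223. Heyl was at 4.43 to 4.48 and 4.52 to 4.77, with limma adjusted p of 0.729 and 0.128.

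**Figure D4:**
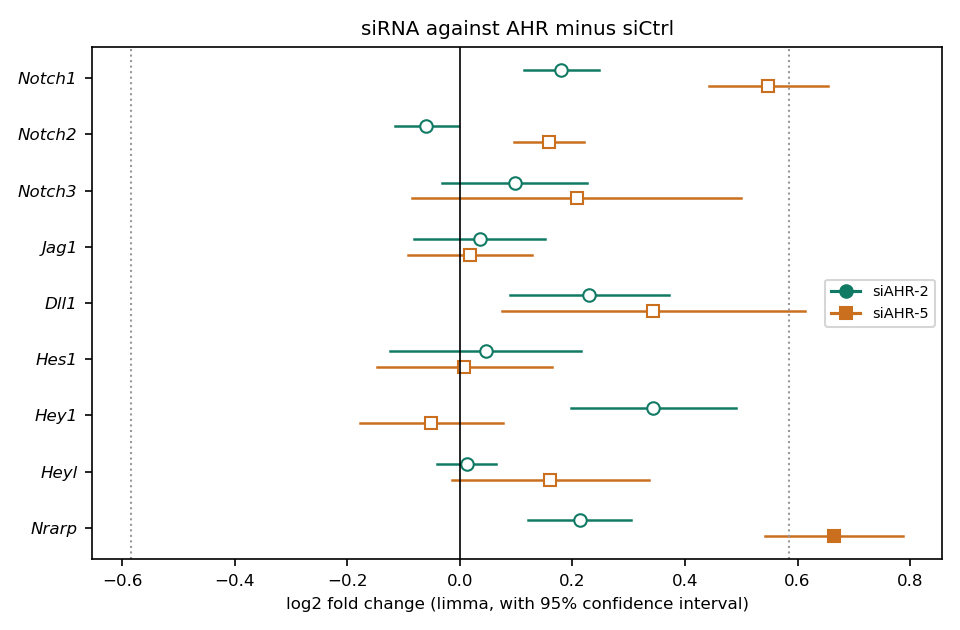
Log2 fold change of each Notch gene with siAHR-2 (circles) and siAHR-5 (squares) against the siCtrl libraries they share (horizontal axis), with 95% confidence intervals from limma. Dotted lines mark the 1.5-fold cutoff and the filled symbol passed: Nrarp at 0.66 with siAHR-5, with Notch1 next at 0.55.

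Over the 12-library set, the groups of Notch1 and of Nrarp stood in the same order without overlap, from myc-/- through siCtrl and siAHR-2 to siAHR-5. For Jag1 the myc-/- group was highest and the 3 groups with MYC overlapped. For Hes1 the myc-/- group was lowest and the other 3 overlapped. For Hey1 the order was myc-/-, then siAHR-5 and siCtrl, which overlapped, then siAHR-2. The median log2 fold change of the members was 0.10 with siAHR-2 and 0.16 with siAHR-5, beside 0.00 and 0.01 for all genes.

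Of the 66 pathway genes, none passed with siAHR-2 by limma, 32 had an unadjusted p below 0.05, against 40.4% of all genes, and 25 an adjusted p below 0.05, against 29.3%. With siAHR-5, 3 rose, against 1.47% of all genes: Nrarp, Neurl1b and Numbl. Neurl1b was at 9.47, 9.34 and 9.16 with siCtrl, 9.23, 9.14 and 9.24 with siAHR-2 and 9.98, 10.11 and 9.97 with siAHR-5, a rise of 0.69 (limma adjusted p = 0.00279). Its call with siAHR-5 was lost when siCtrl replicate 2 or any siAHR-5 library was left out (limma adjusted p between 0.0109 and 0.0140) and with the replicate block (limma adjusted p = 0.0105). Numbl was at 11.01, 10.93 and 10.96, then 11.02, 11.08 and 10.96, then 11.59, 11.74 and 11.59, a rise of 0.67 (limma adjusted p = 6.81e-04). Neurl1b and Numbl were 0.81 and 0.62 higher with siAHR-5 than with siAHR-2, which passed, against 2.18% of all genes in that comparison. Without siAHR-5 replicate 2, Numbl was 0.57 higher, under the fold asked for. Hdac1, a histone deacetylase of corepressor complexes, was lower with siAHR-5 than with siAHR-2, at -0.60 (-0.58 without siAHR-2 replicate 1, under the fold asked for). Lfng was at 0.01 with siAHR-2 and 0.55 with siAHR-5 (limma adjusted p = 0.00122), under the fold asked for.

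Genes with profiles most like those of Notch1, Dll1 and Hey1 were sought over the 12 libraries of the 12-library set, as a description, since these libraries share groups. For Notch1 they were Csnk1g1, Mink1 and Prr11, with Pearson's r of 0.980, 0.979 and 0.978. For Dll1 they were Fkbp1b, Foxc1 and Cnnm1, at 0.990, 0.990 and 0.988, and for Hey1 Cdk2, Gas5 and Epn2, at 0.996, 0.995 and 0.995. Of 13187 genes compared, 387 were above 0.9 with Notch1, 1517 with Dll1 and 1614 with Hey1.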

How the data were processed

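RNA-seq was measured in 18 libraries in 6 groups of 3, which were taken from the sample labels. The submitters' processing notes name HISAT2 2.1.0, rn6 and DESeq2; in the paper's methods, genes with fewer than 10 total reads were removed and the rest normalized with DESeq2. The read counter, annotation and transformation are not given in the sources used here. The authors deposited log2 values for 13188 genes, without pooling. Taken off the log scale, they sum to 86.3 to 94.0 times the total of a CPM library in the 6-library set and 136 to 161 times in the 12-library set, so they are not CPM, and depth and counting precision are unknown. Value columns without a sample numbered 0.

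Tests used limma 3.58.1 in R 4.3.3 (lmFit, eBayes with a trend) on the unchanged log2 values, and p-values were adjusted by Benjamini-Hochberg over the 13188 genes. Each fit held the compared groups alone, and the difference between the sets came from 1 fit of 4 groups. A gene passed at a fold of at least 1.5 and an adjusted p of at most 0.01. The fits were tested on simulated data. Plots came from matplotlib 3.10.9 (Python 3.11.15).

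Members, pathway list, cell markers and tests were chosen with earlier results of these data known. Named were the members, pathway genes past the cutoffs in both MYC comparisons or with either siRNA, and the 3 genes most like the receptor, the ligand and the target with the largest mean change. Others are named after their values were seen. Promoters came from RefSeq (GRCr8), where 9 of 10 listed symbols matched. Alternatives were the cutoff, the groups in the fit, no trend, quantile normalization, median centring, genes with a mean of at least 5, a pseudocount of 1, a replicate block, each library left out, and groups compared as labelled across the sets. Krt18, an epithelial marker, was not analysed here, and 1 gene of the pathway list is not reported by name.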

Additional observations from a re-analysis of the deposited data

Results flagged for a closer look

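In 9 of the 66 pathway genes, against 16.5% of all genes, the MYC effects of the sets differed past the cutoffs by a limma test of the difference itself. All values are the log2 fold change with MYC in the 12-library set minus that in the 6-library set. Among the members it was 1.44 for Notch1 and 0.87 for Hes1. Of the other genes it was 1.17 for Hes6, 0.90 for Dtx3l, a Deltex-like ubiquitin ligase, and 0.64 for Adam17, a protease that can cleave Notch. It was -1.14 for Numbl, -1.14 for the corepressor gene Tle2, -0.72 for Furin, which processes the Notch precursor, and -0.69 for Hes7.

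Notch1 (-1.07 and 0.38), Hes1 (-0.46 and 0.41), Hes6 (-0.69 and 0.47) and Adam17 (-0.50 and 0.14) had opposite signs in the 6- and 12-library sets. Furin was at -0.03 and -0.75, Dtx3l at -0.07 and 0.83, Tle2 at 1.25 and 0.12, and Hes7 at 0.80 and 0.11. Numbl fell in both sets, at -0.69 and -1.83. The sets differ in scale and in which cells were transfected, and these cannot be told apart. After quantile normalization Adam17 was at 0.55 and Hes7 at -0.55, under the fold asked for.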

How the results depend on the processing

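At an adjusted p below 0.05 with no fold cutoff, 7 and 8 members and 53 and 42 pathway genes passed for MYC in the 6- and 12-library sets (76.2% and 64.7% of all genes), 4 and 25 with siAHR-2 (29.3%), 3 and 31 with siAHR-5 (39.2%), 4 members between the siRNAs (39.1% of all genes) and 5 between the sets (54.9%). Compared as labelled across the sets, whose scales differ, 6 members passed in each comparison, with 42 and 35 pathway genes and 66.5% and 70.0% of all genes. There the median of all genes shifted by -0.64 and 0.63, and signs turned for Notch1 (0.24), Notch3 (0.92), Hdac2 (-0.33), Hey2 (-0.54) and Dtx3l (0.52) in untransfected cells, and for Notch1 (-0.93), Notch2 (0.25), Notch3 (-0.99), Jag1 (0.49), Hes7 (-0.15), Aph1b (0.12), Pofut1 (0.18), Gxylt1 (0.52) and Tle2 (-0.24) in siCtrl cells. The cause was not tested. Median centring gave 5 pathway genes with siAHR-5, against 2.31% of all genes. Other reversals were of values that did not pass: with quantile normalization, Furin at 0.19 with MYC in the 6-library set, Notch2 at 0.010, Heyl at -0.0059, Lfng at -0.0087 and Rbpj at 0.029 with siAHR-2, Egfl7 at -0.032 with siAHR-5 and Hey1 at 0.024 between the sets; with median centring, Heyl at -0.019 and Lfng at -0.025 with siAHR-2, Jag1 at -0.043, Hes1 at -0.052 and Egfl7 at -0.034 with siAHR-5 and Notch2 at 0.0066 between the sets. Of 1062 values refitted on all libraries within the sets, 1032 kept direction and call, 12 lost the call, 5 gained it and 13 reversed.

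Of 936 values with one library left out, 899 kept direction and call, 13 lost the call, 4 gained it and 20 reversed. The reversed ones ranged from -0.026 to 0.0095 for Heyl with MYC in the 6-library set, -0.011 to 0.031 for Lfng with siAHR-2, -0.017 to 0.053 for Jag1, -0.029 to 0.069 for Hes1 and -0.030 to 0.072 for Egfl7 with siAHR-5, -0.0080 to 0.21 for Notch3 and -0.047 to 0.0079 for Jag1 between the siRNAs, and -0.25 to 0.015 for Notch2 and -0.012 to 0.068 for Dll1 between the sets. Member counts ranged from 3 to 3 and from 3 to 4 for MYC in the 6- and 12-library sets, and from 2 to 3 between the sets. Gxylt1 in the 6-library set was at -0.58 without myc-/- siCtrl replicate 1, Pofut1 in the 12-library set at -0.64 without myc-/- replicate 2, and the difference between the sets for Nrarp at 0.63 without myc-/- replicate 2 and 0.59 without myc-/- + MYC replicate 1. Whether numbers shared by libraries of different groups pair them cannot be settled with 3 libraries per group. The correlations of their deviations ran from -0.26 to 0.24. The best match of a library had its own number for 4 of 6 libraries with siAHR-5 and for 4 of 6 between the siRNAs. It did for 0 and 1 of 6 with MYC in the 6- and 12-library sets and for 2 of 6 with siAHR-2. With the replicate block, 3, 3, 0 and 1 members passed for MYC in the 6- and 12-library sets, siAHR-2 and siAHR-5, as without it, and over all genes 3538, 3304, 0 and 270 against 3537, 3361, 62 and 306. The call of Neurl1b with siAHR-5 was lost with the block and, at 0.53, with quantile normalization. That of Aph1b in the 12-library set was lost with the block, without the trend and, at -0.53, with quantile normalization. Depth is unknown, so no limit set by counting can be given.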

Other observations

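Some pathway genes passed in only 1 of the sets, which does not show that the sets differ. In the 6-library set, Pofut1, which adds the O-fucose that fringe enzymes extend, fell by 0.71 and was at -0.55 in the 12-library set, a difference between sets of 0.16 (limma adjusted p = 0.170). Gxylt1, which adds xylose to Notch receptors, fell by 0.61 in the 6-library set and was at -0.21 in the 12-library set. Maml1, a Mastermind coactivator, fell by 0.79 in the 12-library set and was at -0.42 in the 6-library set, and with siAHR-5 it was at 0.57 (limma adjusted p = 3.42e-04), just under the fold asked for. All these genes were named after their values were seen.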
